A study of Mus musculus with 4 samples.

Results

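The choroid plexus epithelium was examined in single nuclei of mouse hippocampus. A nucleus was counted as choroid plexus epithelium when it held at least 3 unique molecular identifiers (UMIs, each standing for 1 captured RNA molecule) of Ttr, UMIs of at least 2 of the 4 genes Folr1, Kcnj13, Otx2 and Clic6, and UMIs of at most 1 of 6 genes of other cell types (Mog, Mag, Aqp4, Inpp5d, Flt1 and Pdgfra). It also needed at least 500 UMIs in all and at most 5% mitochondrial UMIs. The nuclei were thus selected on measured UMI counts of these genes. By this rule 113 of the 32044 nuclei that passed the last limits were choroid plexus epithelium. There were 34 in the wild-type (WT) library, 23 in each PS19 library and 33 in the TG_PS19 library.

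PS19 mice carry the 1N4R form of human tau with the P301S change, encoded by a MAPT transgene under the prion protein (Prnp) promoter, and TG_PS19 mice carry this transgene together with a Rosa26 transgene that overexpresses the sorting receptor SORLA from a CMV/β-actin promoter. WT mice served as reference, and the series asks how raised SORLA acts on aged mice with tau pathology. Frozen hippocampi were pooled within a group, and the labels used here give no age in months, no sex and no number of animals per pool. WT and TG_PS19 have 1 library each, so that the spread between libraries was measured in PS19 alone, and whether the 2 PS19 libraries came from separate animals is not stated.

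The choroid plexus hangs in the brain ventricles, next to the hippocampus in the lateral ventricle. Its epithelium secretes cerebrospinal fluid by moving sodium, chloride, bicarbonate and water, and it forms the barrier between blood and this fluid through tight junctions. It is known for making transthyretin, the carrier of thyroid hormone and retinol encoded by Ttr, and its cells bear tufts of cilia. Since the tissue was dissected as hippocampus, the number of these nuclei also depends on how much plexus stayed attached, and this cannot be told apart from a change in the plexus.

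Otx2, Otx2os1 and Gm534, all among the leading genes, lie side by side on chromosome 14 of mouse build GRCm38. Otx2, the homeobox factor that the plexus needs to form and to persist, spans positions 48657677 to 48673819 on the minus strand. The long noncoding RNA Otx2os1 (48668708 to 48870683, plus strand) overlaps its 5′ end, and Gm534 (48870258 to 48881869, minus strand) overlaps the far end of Otx2os1. Whether the counting used strand is not given in the sources used here, so reads from these overlaps are uncertain. The motif TAATCC, read by OTX-type homeodomains, was searched in either orientation in RefSeq promoters (GRCm38.p6, 250 bases before to 50 after a start). It lay in 3 of the 20 leading genes with a listed promoter, Frem1, Rbm47 and Vat1l, or 15% against 7.16% of all 27025 promoters. A match is a description of letters, not a binding site. The letters GTTGCC of the site of ciliary RFX factors were in 3 of 20 (Spag16, Lrriq1 and Otx2) against 12.7%, and the forkhead letters TGTTTAC were in 0 of 20 against 3.55%. In Rbm47, which encodes an RNA-binding protein, and Vat1l, a leading gene of the choroid list, the match lay before the start. Their 250 bases upstream of it are shown because these genes lead the identity below, with the TAATCC match (here as its reverse complement) in capitals. They lie at chr5:66151955-66152204 (minus strand) and chr8:114205390-114205639 (plus strand).
Rbm47: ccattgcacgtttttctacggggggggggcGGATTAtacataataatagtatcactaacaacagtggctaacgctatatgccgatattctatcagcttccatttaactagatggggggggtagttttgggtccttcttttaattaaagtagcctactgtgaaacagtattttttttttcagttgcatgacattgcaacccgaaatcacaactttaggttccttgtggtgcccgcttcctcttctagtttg
Vat1l: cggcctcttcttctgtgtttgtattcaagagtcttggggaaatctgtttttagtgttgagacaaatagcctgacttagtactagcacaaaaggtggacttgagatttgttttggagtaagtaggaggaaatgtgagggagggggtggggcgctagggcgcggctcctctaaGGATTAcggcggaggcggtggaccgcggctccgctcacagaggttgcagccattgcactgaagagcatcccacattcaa

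Ttr was the most abundant gene of the rule. The members held a median of 33.5 Ttr UMIs in WT (lowest 15, highest 83), 71 in PS19 replicate 1 (3 to 104), 61 in PS19 replicate 2 (28 to 128) and 53 in TG_PS19 (22 to 395). All members but 1 held at least 10 Ttr UMIs. Of the 113, 60 held all 4 of Folr1, Kcnj13, Otx2 and Clic6, 48 held 3 and 5 held 2. These genes chose the nuclei, so their values are a description. Just outside the rule, 31 nuclei were short of Ttr alone, 24 of them with 0 Ttr UMIs and 3 with 2, 1 UMI under the limit. Another 9 had enough Ttr but 1 of the 4 genes, with up to 57 Ttr UMIs, and 43 had enough Ttr and 0 of the 4, with at most 9 Ttr UMIs, 31 of these in TG_PS19. A further 15 nuclei met the first criteria and were left out for 2 or more genes of other cell types. Among the 15 nearest neighbours of each nucleus in a space of principal components, 109 of the 113 members had at least 8 other members, against 20 of 31931 other nuclei. The genes of the rule were not kept out of this space, so this too is a description and no independent check of the rule.

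**Figure D1:**
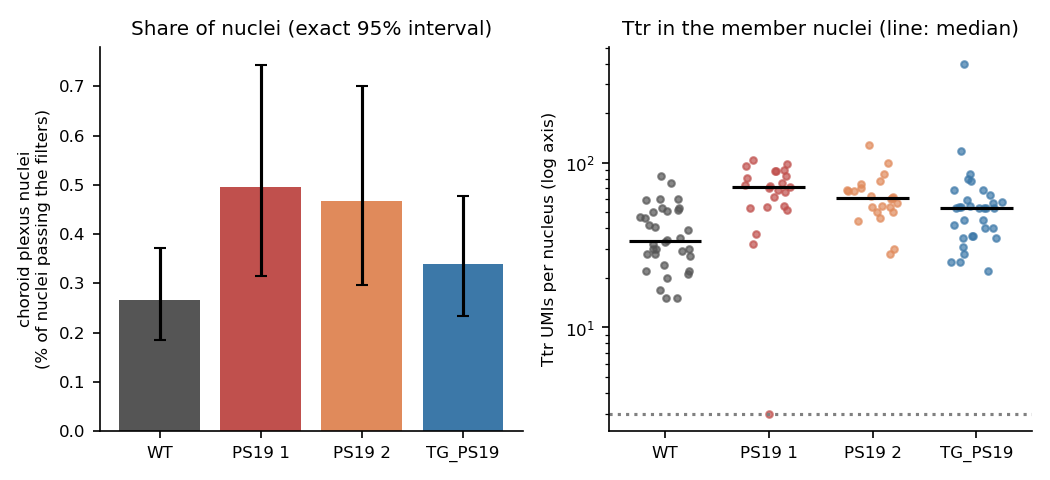
Share of choroid plexus nuclei in each library (left, percent of nuclei passing the filters, bars with exact 95% binomial intervals) and Ttr UMIs in each of these nuclei (right, log axis, line at the median, dotted line at the 3 UMIs required). The shares lie between 0.266% and 0.495% with overlapping intervals, and 1 nucleus sits at the lower limit of 3 Ttr UMIs.

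The share of choroid plexus nuclei was 0.266% in WT (exact Clopper-Pearson 95% interval 0.185 to 0.372), 0.495% in PS19 replicate 1 (0.314 to 0.743), 0.467% in PS19 replicate 2 (0.296 to 0.700) and 0.340% in TG_PS19 (0.234 to 0.477). Both PS19 values lay above the other libraries, and the intervals of all 4 libraries overlapped. Overlap of intervals is no test of a difference. The intervals cover counting error only, and with 1 library each of WT and TG_PS19 the spread of the share between animals is not known. Requiring that none of the 6 other-type genes was seen gave 0.157% in WT and 0.237% to 0.366% elsewhere. Members held 2521 to 20058 UMIs, with medians of 4308 in WT, 6356 and 7014 in the PS19 libraries and 5916 in TG_PS19, against 2638 to 3701 in other nuclei. A doublet score computed here marked all 34 WT members, none and 1 of the 23 members of PS19 replicates 1 and 2, and none of the 33 TG_PS19 members, so leaving out marked nuclei leaves no WT members. No barcode was a member in 2 libraries, and pairs of libraries shared 5 to 32 barcodes among all nuclei passed.

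Other nuclei held little Ttr. A Ttr UMI was seen in 5.87% of them in WT, 11.04% and 9.14% in the PS19 libraries and 16.8% in TG_PS19, and after thinning each nucleus to 1000 UMIs in 2.19%, 3.67%, 2.58% and 6.96%. The level of Ttr outside the members was 19.1, 41.2, 23.6 and 65.6 counts per 1000000 UMIs (CPM), against 7378.5, 10330.6, 8390.4 and 10994.3 CPM inside them. The members thus held between 44.5% (TG_PS19) and 70.3% (PS19 replicate 2) of all Ttr UMIs of a library. The other nuclei include those just outside the rule described above, so their Ttr is not only background in other cell types. The part of each was not measured. Both the level of Ttr in other nuclei and the share of them with a Ttr UMI were highest in TG_PS19.

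Before any comparison, 3 members stood apart from the other 110. A WT nucleus held UMIs of 9 of 11 neuron markers and 15027 UMIs in all, among them 154 of Kcnip4, 143 of Nrxn3 and 123 of Lsamp, which encode neuronal channel and adhesion proteins. A nucleus of PS19 replicate 2 held 10 of 11 neuron markers and 20058 UMIs, with 180 of Lsamp and 135 of Kcnip4. A TG_PS19 nucleus held 395 Ttr UMIs but 0 of Htr2c, and 24.6% of its UMIs came from ribosomal protein genes. No other member held more than 4 neuron markers or more than 0.548% ribosomal protein UMIs. The limits that set them apart (5 markers, 5%) were chosen after the data had been seen, and each result that they touch is given with and without them.

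The leading genes of the nuclei matched the label. The 30 leading genes were those with the largest fold over all other nuclei in the library where that fold was lowest, on the scale log2(CPM + 10), among genes seen in at least 20% of members. Of the genes seen that often, 803 of 5017, or 16%, were at least 1 log2 unit above other nuclei in all 4 libraries, and 113, or 2.25%, at least 1 below. The genes of the rule and all genes that go with them were high by construction, so that these folds are a description without a test. Of the 45 choroid plexus genes listed outside the rule, 39 were seen in 20% of members, and 38 of these were among the 803.

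Htr2c, the serotonin 2C receptor (X:146962513-147197277), led the list. WT members held it at 17209 CPM, the PS19 members at 12589.8 and 10930.7 CPM and the TG_PS19 members at 19830.6 CPM, against 31.3 to 61.8 CPM in other nuclei. Every member but the ribosomal TG_PS19 nucleus held a UMI of it. Otx2os1 reached 2531.2 to 3506.6 CPM against 4.93 to 7.61 CPM outside. Tmem72, which encodes a transmembrane protein, stood at 867 to 991 CPM against 0.742 to 1.62 CPM, the smallest ratio of highest to lowest library among the 30 leading genes. Prlr, the prolactin receptor, stood at 525 to 1027.9 CPM against 5.69 to 7.97 CPM. Kl, which encodes the anti-ageing co-receptor klotho, stood at 388 to 549 CPM, Sostdc1, a secreted antagonist of BMP and Wnt signals, at 263 to 420 CPM and Enpp2, the enzyme autotaxin, at 8825.6 to 10685.2 CPM in all members. The calcium channel gene Trpm3 was more abundant still, at 23188.6 to 26982.5 CPM, but other nuclei held it at 1435.8 to 1769.1 CPM.

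**Figure D2:**
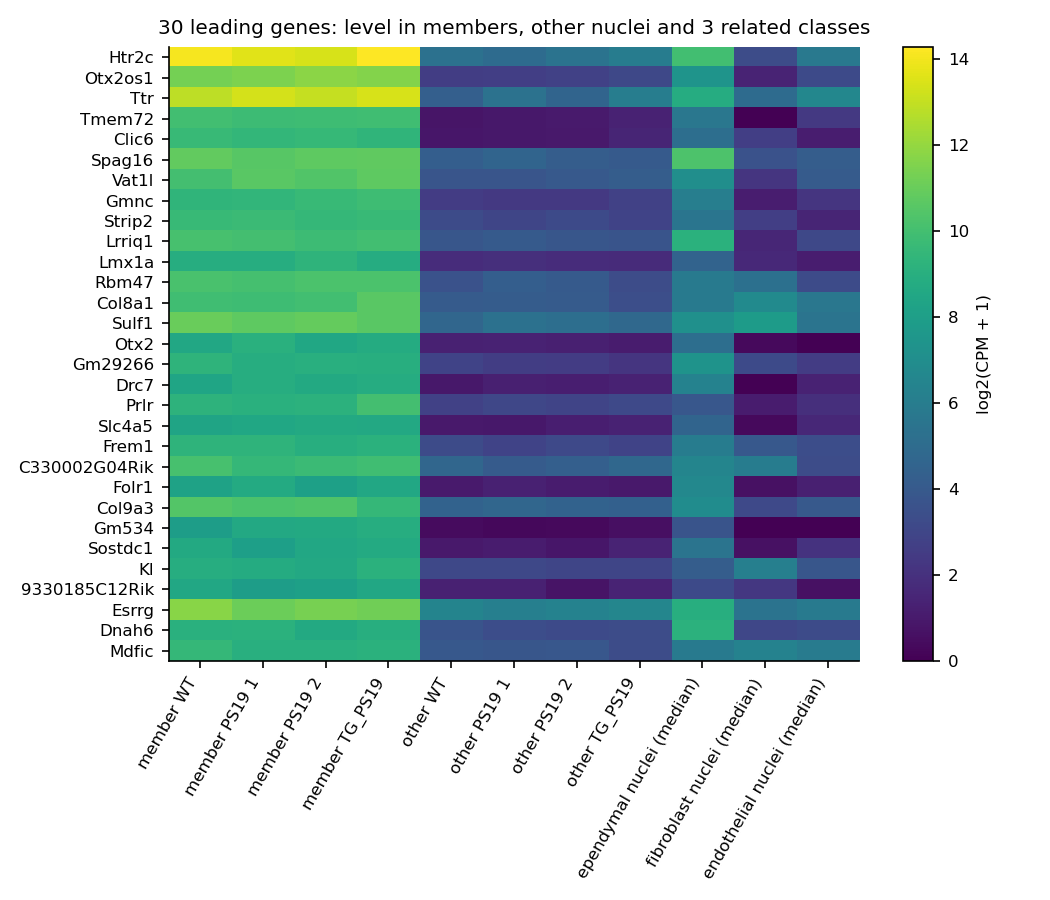
Level of the 30 leading genes, as colour on the scale log2(CPM + 1), in choroid plexus nuclei of each library, in all other nuclei of each library and in ependymal, fibroblast and endothelial nuclei (median over libraries). The choroid plexus columns are high throughout, and the ependymal column comes near them for cilium genes such as Spag16 and Dnah6.

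Among the genes of fluid secretion, 11 of the 23 of the list seen in at least 20% of members were at least 1 log2 unit higher in all libraries. Slc4a5, a sodium bicarbonate cotransporter of the side facing the fluid, stood at 328 to 411 CPM against 0.904 to 1.60 CPM in other nuclei. Trpv4, an osmosensitive channel, stood at 238 to 374 CPM, Kcne2, a potassium channel subunit, at 153 to 190.5 CPM and Stk39, the kinase SPAK that acts on chloride cotransporters, at 2875.9 to 4348.2 CPM against 149 to 160.1 CPM. Slc12a2, the cotransporter NKCC1, was lifted less, at 538 to 676 CPM against 193 to 273 CPM. Of the sodium pump, the subunit Atp1b1 had 366 to 584 CPM against 189 to 265 CPM. The water channel Aqp1, abundant in this epithelium as protein, was seen in 14.2% of members at 11.3 to 37.7 CPM, with at most 0.887 CPM outside.

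Transporters of nutrients and hormones followed. Of 24 genes of solute, vitamin and metal transport seen in 20% of members, 16 were at least 1 log2 unit higher throughout. Slc23a2, a vitamin C transporter, stood at 668 to 996 CPM against 91.0 to 109.9 CPM and Slc16a8, a lactate transporter of this epithelium and the retinal pigment epithelium, at 62.3 to 204 CPM against 0.144 to 0.269 CPM. Of 15 junction genes seen in 20% of members, 7 were at least 1 log2 unit higher in all libraries. Cldn2, the pore-forming claudin of the plexus, was in 40.7% of members at 81.0 to 145 CPM against at most 0.251 CPM, and Cgnl1, a junction scaffold, in 78.8%. The endothelial claudin Cldn5 was in 2.65%, and Cdh1, the E-cadherin gene, in 1.77%.

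The transcription factors divided. Gmnc, which starts the programme of multiciliated cells, had 651 to 904 CPM, Lmx1a of the roof plate 457 to 631 CPM, Msx1 183 to 296 CPM and Foxj1, the master factor of motile cilia, 28.3 to 98.5 CPM with at most 2.16 CPM outside. The cortical factor Lhx2 had 0 UMIs in members. The 14 Hox genes of the list, which mark the plexus of the hindbrain ventricle, also had 0 UMIs among 687500, which allows up to 4.36 CPM. Of the 25 motile cilium genes of the list, 17 were seen in 20% of members. All 17 were at least 1 log2 unit higher than in other nuclei in all 4 libraries. Being seen in members was the condition for being counted, so this is a description of these 17 and not of the list. Spag16, of the central apparatus of the axoneme, had 1523.6 to 1834.7 CPM. Several ependymal genes were nonetheless absent: Tmem212, Ccdc153 and the dynein gene Dnah5 had 0 UMIs in members and medians of 530, 109 and 135 CPM in ependymal nuclei, and Dnah12 had at most 17.4 CPM against 785 CPM. The ependymal nuclei were 112 nuclei taken by a marker rule, and they held a median of 463 CPM of Ttr and 972 CPM of Htr2c themselves.

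Immune genes summed to 274 to 399 CPM in members against 486 to 929 CPM in other nuclei. Of 23 genes of the immune interface list, 2 were seen in 20% of members. Vcam1, an adhesion molecule for leukocytes, was in 46.9% at 91.5 to 184 CPM against 20.4 to 31.3 CPM outside, while Ccl2, Lcn2, C3 and Madcam1 had 0 UMIs. None of the 19 interferon-stimulated genes reached 20%, and their sum was 96.3 to 219.9 CPM in members against 103 to 179.6 CPM outside. Stress and immediate early genes summed to 515 to 913 CPM against 377 to 522 CPM, with 4 genes seen in 20% of members, among them Hspa5, a chaperone of the endoplasmic reticulum, in 34.5%.

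Within the members, no gene followed Ttr closely. Over all 113 nuclei the largest Pearson r with Ttr, both as log levels, was 0.39 (Atp5h, a subunit of the mitochondrial ATP synthase), followed by Fau at 0.37, and 3 of the 10 leading genes were ribosomal protein genes by name. Without the 3 nuclei that stood apart the leading gene was Otx2os1, at r = 0.43, and 1 gene (Gm5089) remained among the first 10. These are correlations over nuclei that share libraries and depth, and they are given as a description.

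The transgenes were read next. Human MAPT had 0 UMIs in the members of every library. In the 2 PS19 libraries together this was 0 of 325082 UMIs, which allows up to 9.23 CPM, while other PS19 nuclei held 18.4 CPM. Ependymal nuclei of PS19 held 9 and 3 UMIs, or 65.1 and 20.6 CPM. Fibroblast nuclei of PS19 held 3.77 and 2.38 CPM and endothelial nuclei 8.57 and 7.70 CPM. These values lie under the 9.23 CPM that the members allow, so members cannot be told apart from those classes. In TG_PS19 a count of 0 allows up to 16.1 CPM against 12.6 CPM in other nuclei, so that a difference was not detectable at that depth. Prnp, whose promoter drives the transgene, had 11.3 to 37.7 CPM in members and 89.6 to 126 CPM in other nuclei. Mouse Mapt, the gene of endogenous tau, had 0 to 57.9 CPM against 519 to 739 CPM, and mouse Sorl1 had 0 to 28.9 CPM against 81.5 to 97.2 CPM. As a background for the human features, other WT nuclei held 0 UMIs of MAPT and 2 of SORL1 among 48492369. Other nuclei of PS19 replicate 1 held 7 SORL1 UMIs in 2 nuclei, and those of PS19 replicate 2 held 0. Human SORL1, in contrast, was present in TG_PS19 members, with 16 UMIs in 12 of 33 nuclei, or 86.1 CPM (exact Poisson 95% interval 49.2 to 139.8), against 65.0 CPM in other TG_PS19 nuclei and 0 UMIs in the members of the other 3 libraries. Ependymal nuclei of TG_PS19 held it at 49.3 CPM, and fibroblast and endothelial nuclei held more than the members, at 205 and 286 CPM.

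Sex-linked genes set the TG_PS19 members apart from the nuclei around them. In WT and PS19 the members and the other nuclei both carried RNA of the Y-linked genes Ddx3y, Uty, Kdm5d and Eif2s3y. In TG_PS19, 32 of 33 members, or 97.0% (exact 95% interval 84.2 to 99.9), held a Y-linked UMI, against 29.8% of other TG_PS19 nuclei. After thinning to 1000 UMIs the shares were 54.5% and 14.2%. Ependymal, fibroblast and endothelial nuclei of TG_PS19 held one in 40.0%, 26.3% and 19.3%. Xist, the RNA that silences an X chromosome in female cells, was at 1080.7 CPM in other TG_PS19 nuclei and seen in 56.7% of them. In TG_PS19 members it was at 70.0 CPM (37.3 to 119.6) and in 8 of 33. The Y-linked level of members was 705 CPM in TG_PS19 and 746 to 880 CPM in the other libraries. The sex-linked values of the TG_PS19 members were thus near those of WT and PS19 members and far from those of other nuclei of their own library. The animals that gave these nuclei are not named, so that genotype and animal cannot be told apart for them.

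Low Xist was found in choroid plexus members of all libraries. Its level was 56.6 CPM in WT (exact Poisson 95% interval 27.2 to 104), 72.2 CPM in PS19 replicate 1 (36.1 to 129.3) and 57.9 CPM in PS19 replicate 2 (27.7 to 106), and a UMI was seen in 9 of 34, 7 of 23 and 8 of 23 nuclei. Other nuclei of these libraries held 2.45, 3.77 and 3.23 CPM, with a UMI in 0.864% to 1.33% of nuclei. Every member with Xist also held a Y-linked UMI, and no member held more than 4 Xist UMIs. Fibroblast nuclei of these 3 libraries held at most 1.19 CPM and endothelial nuclei at most 2.86 CPM. Ependymal nuclei held 17.2 CPM in WT (3.55 to 50.3) and 14.5 CPM in PS19 replicate 1 (1.75 to 52.3). Both of these intervals overlap those of the members. In PS19 replicate 2 ependymal nuclei held 0 CPM (up to 25.3). Tsix, which overlaps Xist on the opposite strand, had 5 to 15 UMIs in members, so that reads of the pair are uncertain.

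**Figure D3:**
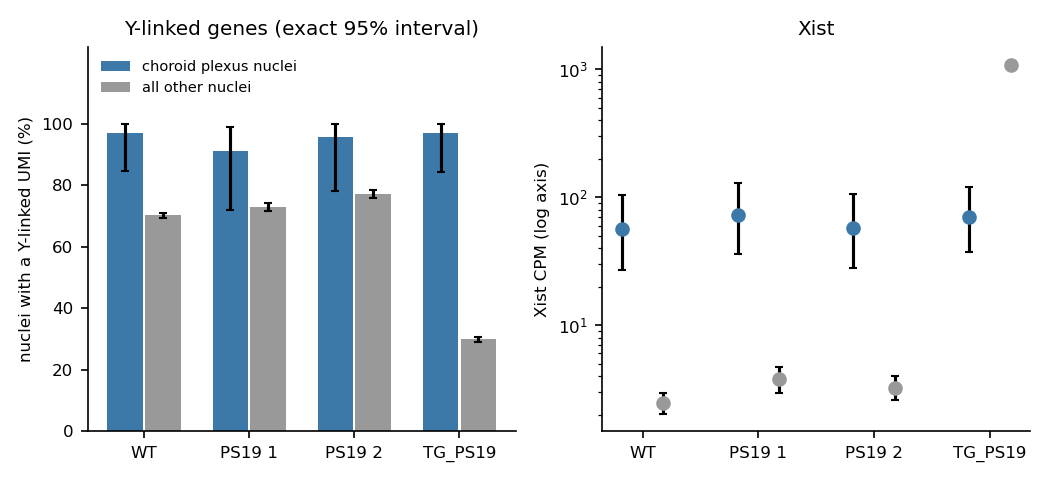
Share of nuclei with a UMI of a Y-linked gene (left, percent, exact 95% intervals) and Xist level (right, CPM, log axis, points with exact 95% Poisson intervals) in choroid plexus nuclei and all other nuclei of each library. In TG_PS19 the choroid plexus nuclei stay at 97.0% with a Y-linked UMI while the other nuclei are at 29.8%, and Xist is at 56.6 to 72.2 CPM in choroid plexus nuclei of the 4 libraries.

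For the comparisons of genotypes, the UMIs of the members were summed per library and tested over 5367 genes with edgeR's quasi-likelihood test and Benjamini-Hochberg adjustment at 0.05. Only the PS19 pair leaves a residual degree of freedom, and the lone WT and TG_PS19 libraries are assumed to vary like it. In PS19 against WT 69 genes passed, or 1.29% of those tested, 23 higher (0.429%) and 46 lower (0.857%). In TG_PS19 against PS19 58 passed (1.08%), 25 higher (0.466%) and 33 lower (0.615%), and in TG_PS19 against WT 79 passed (1.47%), 25 higher (0.466%) and 54 lower (1.01%). The 3 comparisons share libraries and are not independent of each other. Without the 3 nuclei that stood apart 0 of 4763 genes passed in any comparison, with lowest adjusted p-values of 0.763, 0.749 and 0.7996, while 223, 244 and 219 genes had an unadjusted p under 0.05. DESeq2 called 1 gene in each comparison with all members (Nrxn3, Wdr17 and Rbfox1) and 0 without the 3 nuclei.

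The calls fell into those carried by the nuclei that stood apart and those seen in many nuclei. In 20 of 69, 30 of 58 and 46 of 79 called genes, over 50% of the UMIs of some library came from a nucleus that stood apart. Of the called genes that could still be tested without them, 58 of 59, 30 of 43 and 44 of 54 kept their direction and at least 50% of their log2 fold change. The estimated prior degrees of freedom of the test were infinite with the 3 nuclei and 1.80 without them, so the 2 fits also differ in how much spread they borrow across genes. All calls below are therefore from the fit with all members, and none of them passed without the 3 nuclei. DESeq2 kept none of the named calls but Nrxn3 in PS19 against WT, Wdr17 in TG_PS19 against PS19 and Rbfox1 in TG_PS19 against WT. With no exclusion gene allowed, calls were lost for, among others, Gldc, Chsy1, Tbc1d1, Gm29683, Magi1, A1bg, Id3, Mecom, Rbfox1 and Prickle1 in TG_PS19 against PS19, and Mef2c in TG_PS19 against WT. Without a low-count filter they were lost for, among others, Ednrb, Gm29683, Mecom and Slc24a4, for Slc35f1 in PS19 against WT, for Magi1 in TG_PS19 against WT and for Prickle1 in TG_PS19 against PS19. Requiring 3 of the 4 epithelial genes ended the calls of Mecom, Nkain3 and Rpl41, of Magi1 in TG_PS19 against WT and of Prickle1 in TG_PS19 against PS19. Thinning each nucleus to 1000 UMIs left 645 testable genes. It ended the calls of, among others, Mef2c, Rora, Magi1, Id3, Mecom, Htr2c and Prlr. Those of Prickle1 in PS19 against WT and of Prickle1 and Rbfox1 in TG_PS19 against PS19 were lost too. UMI numbers by library are those of the 110 other members unless all members are named.

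**Figure D4:**
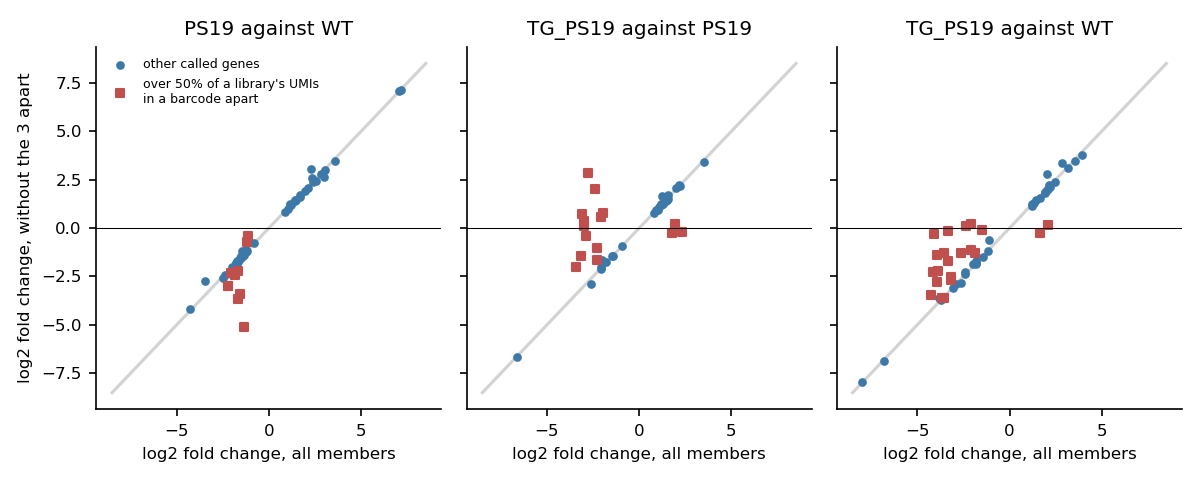
Log2 fold change of the called genes of each comparison with all 113 members (horizontal) and without the 3 nuclei that stood apart (vertical), for genes tested in both. Round points lie near the grey line of equality, while many square points, genes with over 50% of a library's UMIs in such a nucleus, lie off it, some across 0.

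Rbfox1, a splicing factor gene abundant in neurons, fell from WT to PS19 and to TG_PS19. The 110 members held 282 UMIs of it in 31 of 33 WT nuclei, 97 in 15 of 23 and 48 in 11 of 22 PS19 nuclei, and 26 in 16 of 32 TG_PS19 nuclei. WT was high and TG_PS19 low, and the PS19 libraries lay between. With all members PS19 differed from WT by -1.78 in log2 (SE 0.25) at an edgeR adjusted p of 4.37e-09. TG_PS19 differed from PS19 by -2.04 (SE 0.34, edgeR adjusted p 2.47e-06) and from WT by -3.82 (SE 0.36, edgeR adjusted p 2.69e-22). Without the 3 nuclei these were -1.92, -1.68 and -3.60. In other nuclei, where Rbfox1 was at 2032.1 to 2666.8 CPM, the log2 differences were -0.24, 0.47 and 0.23. Rbfox1 is among the 11 neuron markers and gave 282 of their 387 UMIs in WT: 9 of the markers were seen in the 110 members and Slc17a7 and Gad2 were at 0. Summed, they gave 2395.3 CPM for WT, 939 and 576 for the PS19 libraries and 484 for TG_PS19. Syt1, another of them, did not follow the same order, with 29, 5, 5 and 41 UMIs. The part of neuronal RNA in the Rbfox1 result was not tested.

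Pdzrn4, which encodes a RING finger and PDZ domain protein, and the planar polarity gene Prickle1 lay in the same direction; both were named after their values had been seen. Without the 3 nuclei Pdzrn4 had 99 UMIs in WT, 14 and 10 in PS19 and 9 in TG_PS19, and its log2 fold change in PS19 against WT was -2.23 (SE 0.35, edgeR adjusted p 2.68e-07) with all members. Prickle1 had 106, 42 and 35, and 16 UMIs, and it fell in all 3 comparisons. Slit2, a secreted axon guidance protein of the plexus, fell by 1.19 log2 units in PS19 against WT, with an SE of 0.25 and an edgeR adjusted p of 0.000881, with 267 UMIs in WT and 104 and 126 in PS19. It had 154 UMIs in TG_PS19, where no comparison passed. Unc5c, which encodes a netrin receptor, had 28 UMIs in WT, 3 and 5 in PS19 and 17 in TG_PS19. Tbc1d1, a regulator of glucose transporter traffic, was seen in 17 of 33 WT nuclei with 30 UMIs, with 0 and 3 UMIs in PS19 and 0 in TG_PS19. Its level was at least 11.2-fold lower in TG_PS19 than in WT, with the count of 0 set to 3 over the library.

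Of the calls in PS19 against WT that no nucleus apart carried by over 50% of a library, 22 were higher and 27 lower. Gldc, a glycine cleavage enzyme, had over all members 0 UMIs in WT against 18 in 10 of 23 and 16 in 9 of 23 nuclei of PS19, so that PS19 was at least 6.16-fold higher when WT is set to 3 counts (edgeR adjusted p 0.00125). TG_PS19 had 8 UMIs. Chsy1, a chondroitin synthase, likewise had 0 UMIs in WT, 8 and 24 in PS19 and 9 in TG_PS19. Ednrb, the endothelin B receptor, had 1 UMI in WT, 13 and 11 in PS19 and 17 in TG_PS19. Mef2c, a transcription factor named after its values had been seen, had 10 UMIs in 5 of 33 WT nuclei without the 3 nuclei, 66 in 13 of 23 and 98 in 15 of 22 PS19 nuclei, and 78 in 20 of 32 TG_PS19 nuclei. WT was below the other libraries, and Mef2c rose by a log2 fold of 2.28 (SE 0.39, edgeR adjusted p 3.20e-06) in PS19 and 2.02 (SE 0.42, 0.000324) in TG_PS19. Magi1, a scaffold of tight junctions, rose in both, by 1.17 and 1.21. Gldc and Ednrb are also glial genes. The 7 astrocyte markers summed, over the 110 members, to 322 CPM for WT, 229.9 and 209 for the PS19 libraries and 314 for TG_PS19, and their part in these results was not tested.

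**Figure D5:**
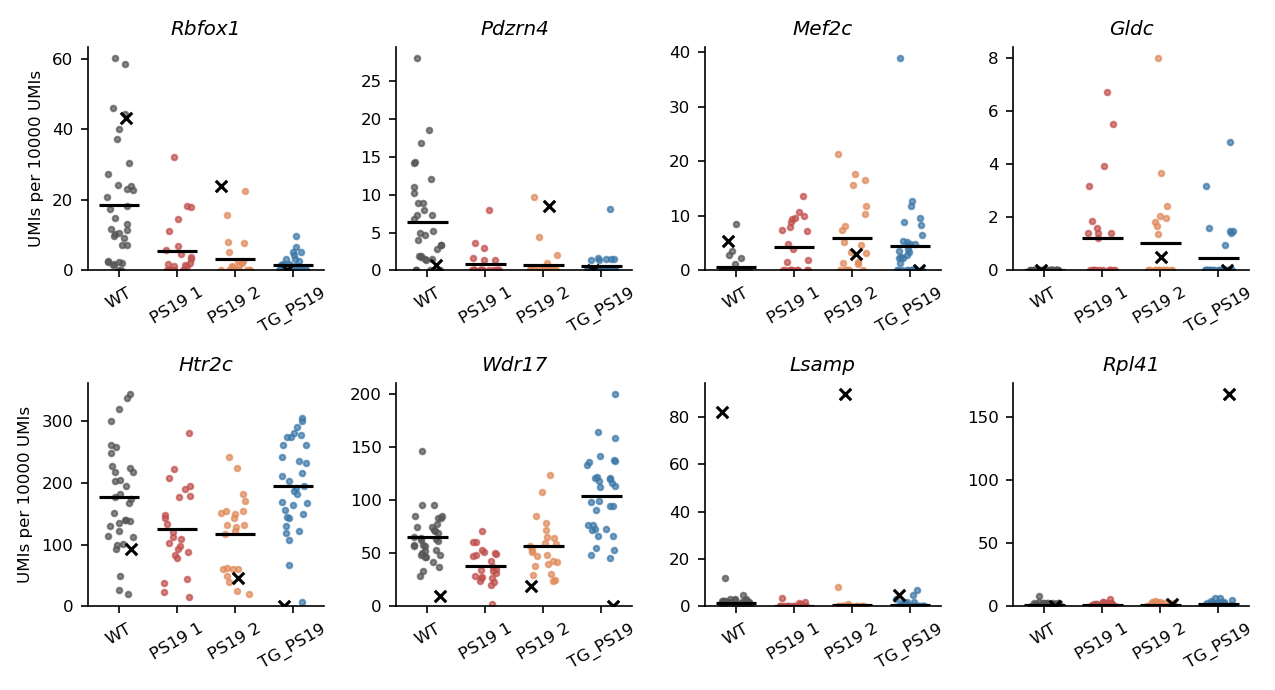
UMIs of 8 genes per 10000 UMIs in each choroid plexus nucleus by library, with the mean of the 110 nuclei as a line and the 3 nuclei that stood apart as crosses. Rbfox1, Pdzrn4, Mef2c and Gldc have UMIs in many nuclei, while crosses hold 123 of 147 Lsamp UMIs in WT, 180 of 189 in PS19 replicate 2 and 70 of 98 Rpl41 UMIs in TG_PS19.

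In TG_PS19 against PS19, 2 of 19 tested receptor genes rose, Htr2c and Prlr, beside 1.08% of all genes called. Htr2c had 2900 UMIs in WT, 1917 and 1798 in PS19 and 3685 in TG_PS19 over the 110 members, and rose by a log2 fold of 0.80 (SE 0.18, edgeR adjusted p 0.00274). TG_PS19 was high and both PS19 libraries low, with WT between, and PS19 against WT gave -0.61 (edgeR adjusted p 0.0616). Prlr, with 104 UMIs in WT over all members, 80 and 101 in PS19 and 191 in TG_PS19, rose by 0.93 (SE 0.27, edgeR adjusted p 0.0437). The Prlr call was lost with RLE scaling (adjusted p 0.0562), library totals (0.0759), no low-count filter (0.0953), a minimum of 10 Ttr UMIs (0.0545) and no exclusion gene allowed (0.381), and the Htr2c call with no exclusion gene allowed (0.280). Thinning each nucleus to 1000 UMIs ended both calls, with log2 fold changes of 0.63 for Htr2c and 1.13 for Prlr. Htr2c and Prlr were also the 2 that passed among the 37 tested choroid plexus genes outside the rule. Their list had a median log2 fold change of 0.07, against -0.04 over all genes tested, and 0 of 37 passed in each of the other 2 comparisons. In other nuclei, which include those just outside the rule, Htr2c differed by 0.85 on the log2 scale. The level of Ttr there was also highest in TG_PS19, and the part of RNA outside the members in the Htr2c result was not tested. Wdr17, which encodes a WD repeat protein and was named after its values had been seen, had 1013 UMIs in WT, 568 and 826 in PS19 and 1817 in TG_PS19, and rose by 1.21 (SE 0.20, edgeR adjusted p 1.38e-06). In other nuclei Wdr17 differed by 1.15 log2 units in the same comparison.

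Rora, a nuclear receptor named after its values had been seen, passed in PS19 against WT and, in the opposite direction, in TG_PS19 against PS19. It had 224 UMIs in WT, 444 and 409 in PS19 and 258 in TG_PS19. With all members it rose by 1.03 log2 units in PS19 against WT (SE 0.24, edgeR adjusted p 0.00393) and fell by 0.94 in TG_PS19 against PS19 (SE 0.24, edgeR adjusted p 0.0144). Both comparisons use the same PS19 libraries, so a deviation of those libraries alone would give opposite signs.

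Id1 and Id3, target genes of BMP signalling, fell in TG_PS19, each in a single comparison. Id1 had 23 UMIs in WT, 46 and 25 in PS19 and 10 in TG_PS19, and fell by 2.07 log2 units against PS19 (SE 0.50, with edgeR adjusted p at 0.00666). A single nucleus of PS19 replicate 1 held 29 of its 46. Requiring 10 Ttr UMIs leaves out 1 member only, a PS19 replicate 1 nucleus with 3 Ttr, 11 Htr2c and 2 Wdr17 UMIs. The call was lost with a minimum of 10 Ttr UMIs (-1.39, adjusted p 0.248) and with no exclusion gene allowed (0.136). Id3 had 59, 44 and 32, and 18 UMIs, and fell against WT by 1.81 (SE 0.45, 0.00670), again with 30 of 44 in 1 nucleus of PS19 replicate 1. In other nuclei Id1 also differed, by -0.67 log2 units in TG_PS19 against PS19, and Id3 by -0.75 in TG_PS19 against WT. The part of this library-wide difference in the member values was not tested. Meg3, a noncoding RNA and neuron marker, had 63 UMIs in WT, 36 and 25 in PS19 and 11 in TG_PS19. Slc24a4, a sodium calcium exchanger, had 8, 27 and 18, and 43 UMIs and rose against WT by 2.16 (SE 0.56, 0.0118). Slc35f1, of a solute carrier family, had 18, 37 and 60, and 79 UMIs and rose in PS19 and in TG_PS19 against WT. Mecom, a transcription factor listed with endothelial markers, had 58, 54 and 106, and 145 UMIs in all members and rose in TG_PS19 against WT. The 6 other endothelial markers summed to 415 CPM for WT, 322 and 295 for the PS19 libraries and 407 for TG_PS19. Of these sums Slco1a4 alone gave 365, 322, 288 and 358 CPM, against 52.7, 59.0, 56.8 and 41.5 CPM in other nuclei. A1bg rose against PS19 with 20 UMIs in TG_PS19 and 1 and 2 in PS19.

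The other genes that the naming rule brought up rested on few nuclei. Slc7a11, the cystine transporter, had 0 UMIs in TG_PS19, and all 23 UMIs of PS19 replicate 2 came from 1 nucleus. Over all members Nkain3 had 12 UMIs in WT, 6 and 17 in PS19 and 0 in TG_PS19, with 11 of the 17 in the PS19 nucleus that stood apart. Gm29683 had 2 UMIs in WT, 22 and 11 in PS19 and 15 in TG_PS19. Nrxn3, Unc5d, Kctd16, Gpc5, Dab1, Grm5, Dlgap2, Ralyl, Cacna1e, Clstn2, Frmd4a and Kcnip4 were called mainly through the 2 nuclei with neuron markers. Of 147 Nrxn3 UMIs in WT members, 143 were in 1 nucleus, as were all 29 of Unc5d. Kcnip4 fell in TG_PS19 against PS19 with a log2 fold change of -3.01 (edgeR adjusted p 4.92e-09), which was 0.12 without them. Fth1, of the iron store ferritin, and Tpt1 were called higher in TG_PS19 through its ribosomal nucleus, which held 63 of 84 and 35 of 42 of their UMIs, and Fth1 was at -0.23 without it. Lsamp and Rpl41, shown by nucleus for this reason, had 24, 6, 9 and 11 and 22, 22, 20 and 28 UMIs in the 110 members.

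The 5 genes of the rule chose the nuclei, so that their values between genotypes are a description with no test. Log2 fold changes in TG_PS19 against PS19 were 0.28 (SE 0.19) for Ttr, 0.16 (0.32) for Folr1, 0.06 (0.30) for Otx2, -0.12 (0.28) for Clic6 and -0.77 (0.31) for Kcnj13, each with its SE in parentheses. Ttr in TG_PS19 rests partly on the ribosomal nucleus, and its value was -0.03 without it. In PS19 against WT they were 0.28 (0.20), 0.18 (0.33), 0.16 (0.31), -0.14 (0.27) and 0.57 (0.30). Of 23 tested genes of fluid secretion, 1 passed in the 3 comparisons (Slc24a4), where 1.08% to 1.47% of all genes were called. The 16 tested motile cilium genes had medians of -0.13, 0.21 and 0.05, and at that share of calls their 0 calls say nothing of the group. Xist differed in TG_PS19 against PS19 by 0.16 (SE 0.62) in members and by 8.39 in other nuclei. Human SORL1, with 16 UMIs in TG_PS19 members and 0 in those of the other libraries, was at least 5.07-fold above WT with WT set to 3 counts, and did not pass the test (edgeR adjusted p 0.857 against WT and 0.595 against PS19). In the 110 members the markers of oligodendrocytes, microglia, mural cells, fibroblasts, ependyma and oligodendrocyte precursors summed to 223 to 517 CPM, 387 to 655 CPM, 52.5 to 157 CPM, 38.5 to 210.4 CPM, 1256.9 to 1627.8 CPM and 13.1 to 37.1 CPM over the 4 libraries.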

How the data were processed

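Single nuclei were profiled in 4 libraries of mouse hippocampus (1 WT, 2 PS19, 1 TG_PS19). The authors deposited raw UMI counts per gene and barcode, made with Cell Ranger 7.1.0 on GRCm38 per the submitters' processing notes, with 55401 mouse and 2 human features. The files held 4643 to 12762 barcodes and 20062916 to 48668963 UMIs a library after the filters. Here, member UMIs were summed per library (152266 to 185824) and tested with edgeR 4.0.16 (quasi-likelihood, TMM scaling, filtered on low counts, R 4.3.3), with DESeq2 1.42.0 as alternative. Clustering was not used to choose members. Neighbours used 2000 variable genes and 30 principal components, and doublets were scored by a Scrublet-like method but not removed. The PS19 libraries differed beyond sampling noise (chi-square per degree of freedom 1.986 over 3726 genes). On simulated counts for TG_PS19 against PS19 with 200 of 5367 genes changed 4-fold, 71.5% were recovered with 7 false calls. The changed genes were drawn from the more abundant ones, all genes had the same dispersion, and no nuclei that stood apart were simulated. These figures therefore do not cover low genes or calls carried by such nuclei. Named genes were per comparison the 10 called genes with the largest fold for which both PS19 libraries lay on the same side, the 30 leading genes described above, called genes of the lists, the genes of the rule, Xist and the transgenes. Members and lists were chosen with earlier results of these data known. P-values rest on the spread between the 2 PS19 libraries, which may be technical. With infinite prior degrees of freedom this spread was shared across genes and not measured for each gene. No spread was measured within WT or TG_PS19. Intervals cover counting error at 95%. Some genes that the rule names are not reported here.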

Additional observations from a re-analysis of the deposited data

How the results depend on the processing

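With all members, edgeR called 69, 58 and 79 genes in PS19 against WT, TG_PS19 against PS19 and TG_PS19 against WT. DESeq2 called 1, 1 and 1, and thinning each nucleus to 1000 UMIs left 645 testable genes and 4, 2 and 4 calls. Without the 3 nuclei that stood apart, an alternative chosen after seeing the data, the counts were 0, 0 and 0. Without a low-count filter 42 genes passed in PS19 against WT, and with no gene of another cell type allowed 17 passed in TG_PS19 against PS19. Leaving out marked doublets gave 0 calls in TG_PS19 against PS19 and could not be run against WT, where it leaves a share of 0% of nuclei. The WT share was 0.157% with no gene of another cell type allowed. RLE scaling, library totals and a minimum of 10 Ttr UMIs kept every count within 1.5 times but not every gene. The median lowest log2 fold of the 30 leading genes over other nuclei was 5.03, and it was 6.30 with a pseudocount of 1. It was 5.13 with doublets left out, which drops WT, and 5.07 to 5.16 with 1 PS19 library left out. In these last settings the lowest fold was taken over 3 libraries and not 4, which by itself can only keep or raise it. Kcnip4 in TG_PS19 against PS19 reversed to 0.11 with doublets left out and 0.12 without the 3 nuclei. Lsamp in that comparison reversed to 1.62 with no gene of another cell type, 0.57 with doublets left out, 0.35 without the 3 nuclei and 0.88 without PS19 replicate 2 (-3.92 without PS19 replicate 1). Fth1 reversed to -0.27 with at least 3 of 4 epithelial genes and -0.23 without the 3 nuclei, and against WT to -0.39 and -0.23. These settings overlap. Outside WT, leaving out doublets removed 1 member, the PS19 replicate 2 nucleus that is among the 3. Allowing no gene of another cell type removed it too, with others. Requiring 3 of 4 epithelial genes removed, with others, the ribosomal TG_PS19 nucleus that is among the 3. Beyond the construction of each alternative the cause was not tested. Without a PS19 library no residual degree of freedom is left, so those are fold changes only. No paired analysis was possible because WT and TG_PS19 have 1 library each and share fewer than 2 replicate numbers with PS19. With 23 to 34 members per library, low genes are limited by depth.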
